A study of Mus musculus with 24 samples.

Results

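The adult fiber-type genes of skeletal muscle were followed in mouse quadriceps after volumetric muscle loss. The list held 10 genes taken by symbol from the 14159 genes analysed, and all 10 were present. They were the 4 adult myosin heavy chains Myh7, Myh2, Myh1 and Myh4, the slow myosin light chains Myl2 and Myl3, the slow troponins Tnnt1, Tnni1 and Tnnc1, and the fast-fiber actinin Actn3. Female mice of the strains C57BL/6 (named B6 here) and MRL/MpJ (named MRL), 6 to 8 weeks old at surgery, were either uninjured or had a 3 mm by 3 mm piece of the quadriceps removed, and the defect was filled with saline vehicle (Saline), decellularized porcine extracellular matrix powder (ECM) or polyethylene powder (PE). Each of the 8 groups had 3 bulk RNA libraries, and injured muscle was taken at 21 days. The whole quadriceps went into each library, so that intact muscle, healing muscle and material were read together.

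A muscle fiber contracts at a speed set largely by the myosin heavy chain it makes. Type I (slow) fibers use the chain encoded by Myh7, which is also the beta-cardiac chain, and type IIa, IIx and IIb fibers use those of Myh2, Myh1 and Myh4, in order of rising speed. Slow fibers pair Myh7 with the regulatory light chain Myl2 and the essential light chain Myl3, and they switch contraction on with the slow troponin T (Tnnt1), slow troponin I (Tnni1) and the troponin C shared by slow and cardiac muscle (Tnnc1). Actn3 anchors actin filaments at the Z-disc of fast fibers. The mouse quadriceps is a mainly fast muscle whose slow fibers sit in its deep part, and regenerating fibers pass through a stage with the developmental chains Myh3 and Myh8 before they take up adult chains. In bulk tissue, fewer fibers of a type and less RNA per fiber cannot be told apart.

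In these libraries Myh4 was the leading adult heavy chain throughout, whereas the slow myosins Myh7, Myl2 and Myl3 were the most uneven. From the lowest to the highest library Myh7 spanned 449-fold and Myl3 761-fold, against 7.06-fold for Myh4 and 8.06-fold for Actn3. The type IIa chain Myh2 spanned 276-fold, more than the slow troponins at 124-fold (Tnnt1) to 178-fold (Tnni1). In the 6 slow genes most of the variance lay between libraries of the same group. A single member passed the test in any comparison. Myh2 was lower in PE-treated than in uninjured B6 mice.

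The fast heavy chain genes lie side by side on chromosome 11 (GRCm39), with Myh2 at chr11:67061838-67088989, Myh1 at chr11:67089132-67116631 and Myh4 at chr11:67128336-67151274, all on the + strand. Myh7 (chr14:55208141-55232084, - strand), Tnnc1 (chr14:30930232-30933708, + strand), Myl2 (chr5:122238848-122251545, + strand) and Myl3 (chr9:110570929-110599396, + strand) stood apart from them. Tnnt1 (chr7:4507567-4519381, - strand), Tnni1 (chr1:135707172-135738727, + strand) and Actn3 (chr19:4911215-4928529, - strand) lay on further chromosomes, and all 10 genes are annotated as protein coding. The transcripts of Myh1 and Myh2 were 90.2% identical over 5934 aligned bases, and those of Myh7 and the alpha-cardiac chain gene Myh6 were 90.9% identical over 5850 bases. Reads of these pairs can be split unevenly between them when transcripts are quantified, so that part of a low level of one may belong to its copy. No other member had a gene of the matrix at 90% identity or more, and Myh1 and Myh4 came close at 89.85%.

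The sequence before the start of a gene is where muscle factors such as the MyoD family (at the E-box, CANNTG), MEF2 (an AT-rich site) and the TEAD family (at the MCAT motif, CATTCC) are known to bind. The 250 bases before the RefSeq start (GRCm38.p6, both strands searched) are shown for the neighbouring fast chains and for a slow light chain and a slow troponin that rose and fell among libraries with Myh7. The capitals mark matches to an E-box, to MEF2, to MCAT or to the TATAAA letters of a TATA box. A MEF2 match and TATAAA can overlap.
Myh2 (chr11:67170777-67171026, + strand): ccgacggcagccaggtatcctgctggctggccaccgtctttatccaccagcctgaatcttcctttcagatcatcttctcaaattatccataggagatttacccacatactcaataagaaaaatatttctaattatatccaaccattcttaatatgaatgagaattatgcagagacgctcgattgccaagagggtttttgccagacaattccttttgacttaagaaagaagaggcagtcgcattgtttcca
Myh1 (chr11:67199852-67200101, + strand): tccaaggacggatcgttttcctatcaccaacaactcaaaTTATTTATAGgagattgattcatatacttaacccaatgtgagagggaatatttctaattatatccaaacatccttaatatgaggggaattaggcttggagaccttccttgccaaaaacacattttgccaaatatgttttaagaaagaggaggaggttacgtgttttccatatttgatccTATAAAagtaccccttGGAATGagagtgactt
Myh4 (chr11:67237562-67237811, + strand): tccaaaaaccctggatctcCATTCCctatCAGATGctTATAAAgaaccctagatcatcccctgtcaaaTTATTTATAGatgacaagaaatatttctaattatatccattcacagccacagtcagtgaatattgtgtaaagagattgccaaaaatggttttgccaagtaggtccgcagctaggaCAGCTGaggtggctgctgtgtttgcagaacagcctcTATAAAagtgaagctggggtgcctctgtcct
Myl3 (chr9:110763428-110763677, + strand): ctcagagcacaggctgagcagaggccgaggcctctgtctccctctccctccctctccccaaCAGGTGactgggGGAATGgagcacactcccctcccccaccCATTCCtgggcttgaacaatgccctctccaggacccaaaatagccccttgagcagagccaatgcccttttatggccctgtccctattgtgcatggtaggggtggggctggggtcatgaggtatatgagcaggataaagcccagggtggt
Tnnc1 (chr14:31208062-31208311, + strand): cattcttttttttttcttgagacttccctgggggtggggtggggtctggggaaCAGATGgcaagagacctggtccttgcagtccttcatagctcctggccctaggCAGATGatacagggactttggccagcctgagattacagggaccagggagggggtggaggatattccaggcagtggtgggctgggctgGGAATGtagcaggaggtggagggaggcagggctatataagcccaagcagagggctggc
A MEF2 match ended 201 bases before the start in Myh1 and 172 bases before it in Myh4. It was found in 2 of the 12 windows of the 9 members with a RefSeq entry and in 2.92% of 32851 windows of all genes. An E-box was found in 10 of these 12 windows and in 66.2% of all windows, an MCAT match in 5 and in 12.6%, and TATAAA in 4 and in 12.4%. The Myh2 window held none of the searched motifs. A match describes the letters alone.

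Levels are given as log2 CPM, the logarithm of the read count scaled to library size, where a step of 1 is a doubling. The embryonic heavy chain Myh3, a sign of regenerating fibers, was set beside the injury labels. In 1 of the 9 injured B6 libraries and 4 of the 9 injured MRL libraries Myh3 was no higher than the highest uninjured library of the strain (3.00 in B6 and 4.41 in MRL mice). It was 2.58 in the second Saline-treated B6 library, against 7.51 and 7.88 in the other two. It was 0.78, 3.99 and 4.90 in PE-treated MRL mice, the first below all uninjured MRL libraries. The other MRL libraries among these were the third Saline-treated (3.51) and the first ECM-treated (3.91). In all 5 the summed macrophage markers were above every uninjured library of the strain, at 254 CPM against 112 to 143 CPM in B6 mice, and in MRL mice at 182 and 4064 CPM with PE, 164 CPM with Saline and 147 CPM with ECM against 68.2 to 141 CPM. The other developmental genes Myh8 and Myl4 reached at most 3.77 and 2.90 in uninjured MRL mice. Both were higher in the second PE-treated (4.52 and 3.43) and the first ECM-treated MRL library (3.85 and 3.08). In the third Saline-treated MRL library only Myl4 was (3.17). Neither was above the uninjured libraries of its strain in the first PE-treated MRL or the second Saline-treated B6 library. Whether these 5 libraries are as labelled could not be checked from these data. With any 1 of them left out, 0 members were called in each comparison it entered, and the values that moved are given beside the results.

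Myh7 stood at 9.38, 2.53 and 6.49 in the 3 uninjured B6 libraries and at 8.38, 1.70 and 2.87 in the uninjured MRL libraries. In both strains the first uninjured library was thus high and the second low, and the uninjured B6 range alone was 115-fold. With Saline, Myh7 was 4.75, 6.62 and 9.42 in B6 mice and 3.02, 9.71 and 5.50 in MRL mice.
With ECM it was 5.70, 6.70 and 2.67 in B6 mice and close together at 2.29, 2.36 and 2.10 in MRL mice. With PE it was 1.70, 0.90 and 6.45 in B6 mice and 2.80, 5.65 and 3.87 in MRL mice. The lowest Myh7 level of all was in the second PE-treated B6 library and the highest in the second Saline-treated MRL library. PE-treated B6 mice thus held 2 libraries below every uninjured B6 library and 1 close to the uninjured median.

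The light chains varied with Myh7 from library to library. Myl3 was 7.996, 2.54 and 6.95 in uninjured B6 mice, 2.92, 4.90 and 7.22 with Saline, 2.69, 5.67 and 1.48 with ECM and 0.54, -0.64 and 3.49 with PE. In MRL mice it was 7.70, 1.45 and 2.49 without injury, 2.22, 8.93 and 6.10 with Saline, 2.33, 3.92 and 0.41 with ECM and 1.91, 4.59 and 3.12 with PE. The high and low libraries of Myl3 were largely those of Myh7. Myl2 ranged from -1.36 to 7.41, with its lowest and highest level in the same libraries as Myh7 and Myl3.

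Of the slow troponins, Tnni1 was 6.07, 0.99 and 3.55 in uninjured B6 mice, 5.80, 3.41 and 7.47 with Saline, 4.19, 5.52 and 4.81 with ECM and 4.46, 3.66 and 5.10 with PE. In MRL mice Tnni1 was 5.79, -0.01 and 0.86 without injury, 4.08, 6.86 and 3.37 with Saline, 0.89, 1.91 and 4.19 with ECM and 0.51, 3.40 and 2.02 with PE. PE-treated B6 mice kept Tnni1 at or above the uninjured B6 median in all 3 libraries, unlike Myl3, which lay below its uninjured median in all 3. Tnnt1 ranged from 1.31 in the second uninjured B6 library to 8.27 in the third Saline-treated B6 library, and Tnnc1 from 0.07 to 7.16.

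Myh2, the type IIa chain, was 12.52, 8.34 and 11.54 in uninjured B6 mice, 10.09, 11.92 and 10.96 with Saline, 9.07, 11.37 and 8.22 with ECM and 6.59, 5.16 and 9.32 with PE. In MRL mice it was 12.98, 9.73 and 10.57 without injury, 10.16, 13.27 and 12.27 with Saline, 10.22, 11.16 and 8.53 with ECM and 10.18, 9.35 and 8.90 with PE. The PE-treated B6 libraries lay below all 3 Saline-treated B6 libraries, but the highest of them was above the lowest uninjured one. Myh1, the type IIx chain, was 13.49, 11.45 and 13.60 in uninjured B6 mice, 13.56, 13.87 and 13.17 with Saline, 12.11, 12.99 and 11.85 with ECM and 11.27, 9.97 and 12.46 with PE. Its MRL levels were 13.80, 11.98 and 12.35 without injury, 12.95, 13.94 and 13.68 with Saline, 12.55, 13.21 and 11.30 with ECM and 12.33, 10.71 and 11.15 with PE. In both strains every PE-treated library was below every Saline-treated one in Myh1.

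Myh4, the type IIb chain, had the narrowest range of the members. It was 15.67, 16.08 and 16.26 in uninjured B6 mice, 15.49, 16.13 and 14.65 with Saline, 15.75, 15.65 and 15.12 with ECM and 15.44, 14.50 and 15.47 with PE. In MRL mice it was 15.64, 16.07 and 16.32 without injury, 15.35, 15.16 and 15.88 with Saline, 16.41, 16.19 and 16.15 with ECM and 15.72, 13.59 and 15.70 with PE. The second PE-treated MRL library stood 2.13 below the highest of its group. Actn3 ranged from 11.09 in that second PE-treated MRL library to 14.10 in the third uninjured MRL library, and its uninjured B6 levels of 13.49, 13.49 and 13.60 were the tightest of any member and group.

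**Figure D1:**
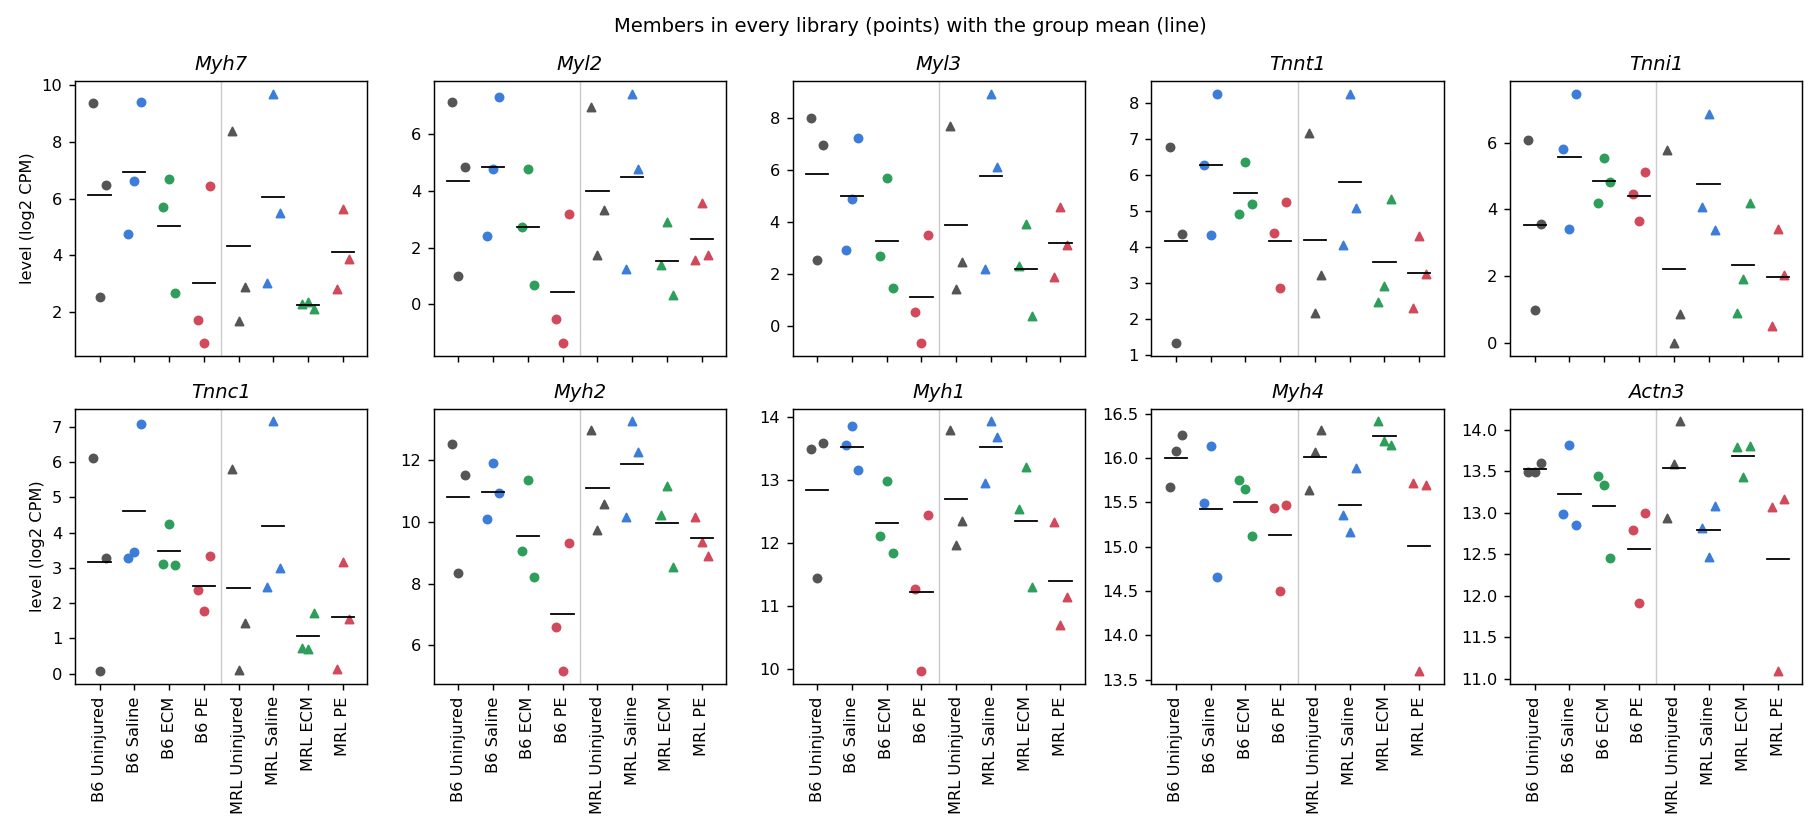
Levels of the 10 genes in log2 CPM (vertical axes, a separate scale for each gene) by group, with 1 point per library (B6 circles, MRL triangles, replicates 1 to 3 from the left) and a line at the group mean. The slow genes Myh7, Myl2, Myl3, Tnnt1, Tnni1 and Tnnc1 spread widely inside most groups, as in uninjured B6 mice with Myh7 from 2.53 to 9.38, while the groups of Myh4 and Actn3 are narrower, with ranges of at most 2.13 and 2.07 in PE-treated MRL mice and at most 1.48 and 1.17 in the other groups.

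When the groups were ranked by mean, none of the 7 neighbouring pairs was free of overlap, and this was so for each of the 10 genes. Neighbours in this order are the groups closest in mean, so the ranking itself favours their overlap. Groups farther apart could be free of it, as Myh1 was between PE and Saline in both strains. For Myh7 the mean ran from 2.25 ± 0.14 (SD, n = 3) in ECM-treated MRL mice to 6.93 ± 2.35 in Saline-treated B6 mice. For Myh2 it ran from 7.02 ± 2.11 in PE-treated B6 mice to 11.90 ± 1.59 in Saline-treated MRL mice. Myh4 ran from 15.00 ± 1.22 in PE-treated to 16.25 ± 0.14 in ECM-treated MRL mice. The residual SD within groups was 2.67 for Myh7, larger than in 99.9% of all genes, and 1.59 for Myh2, larger than in 98.2%. It was 0.59 for both Myh4 and Actn3, nearer to the median of 0.40 over all genes. Of the variance between libraries, the groups held 30.7% (Tnnt1) to 40.5% (Tnni1) in the 6 slow genes and a median of 51.4% over all genes.

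Set per length of transcript, the heavy chain genes could be compared with each other as CPM per kilobase of the Ensembl canonical transcript. Myh4 took a median of 11655 CPM per kilobase in uninjured B6 mice, against 1528 for Myh1, 439 for Myh2 and 14.6 for Myh7. Of the sum of the 4 adult chains, Myh4 was 77.8%, 96.5% and 86.3% in the 3 uninjured B6 libraries and 73.2%, 94.6% and 93.7% in the uninjured MRL libraries. In no library did it fall under 62.7%, the value of the second Saline-treated MRL library, where Myh1 reached 21.2% and Myh2 14.8%. With PE its share was 95.6%, 96.6% and 89.96% in B6 mice and 91.4%, 86.5% and 96.0% in MRL mice.
The Myh2 share was 0.182%, 0.130% and 1.10% in PE-treated B6 mice, and 7.68%, 0.394% and 2.87% in uninjured B6 mice. The 2 lowest Myh2 shares were thus those of PE-treated B6 libraries, and the third lay inside the uninjured range. Myh7 was over 1% in 2 libraries only, 1.88% in the third Saline-treated B6 library and 1.39% in the second Saline-treated MRL library. These shares are of transcripts and not of fibers or protein, and they carry no test here.

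**Figure D2:**
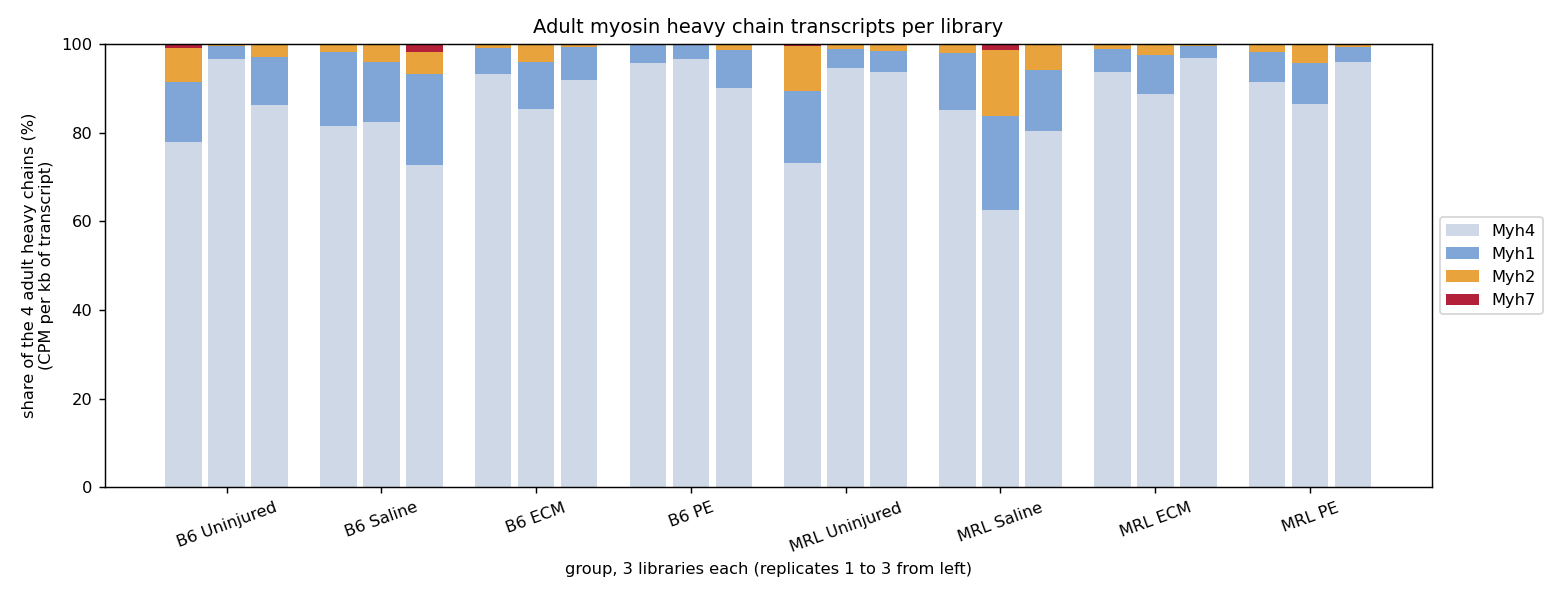
Share of each adult myosin heavy chain gene in the sum of the 4 (vertical axis, percent of CPM per kilobase) in each of the 24 libraries, as stacked bars by group with replicates 1 to 3 from the left. Myh4 fills most of every bar, from 62.7% to 96.9%, and the bars with the most Myh2 and Myh7 are single libraries of the uninjured and Saline groups.

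PE against uninjured muscle gave the one call. Myh2 was lower in PE-treated than in uninjured B6 mice, at a mean of 7.02 against 10.80, a difference of -3.78 (SE 1.197, 13.7-fold, adjusted p = 0.0304 by limma), and the groups overlapped. In this comparison 24.8% of all genes were called, so 1 of 10 members called was below the background. The call was lost when any of 4 libraries was left out, with an adjusted p of 0.128 without the first uninjured library, 0.0955 without the third, 0.077 without the first PE-treated library and 0.168 without the second. A further 3 members had an unadjusted p under 0.05, all with overlapping groups. Myl3 differed by -4.70 (SE 1.86, adjusted p = 0.0689), Myl2 by -3.88 (SE 1.78, adjusted p = 0.108) and Myh1 by -1.62 (SE 0.71, adjusted p = 0.0978). Without the second uninjured library, which was low in every slow gene, Myh1, Myh2, Myl2 and Myl3 were called, with 18.2% of all genes. Without the third PE-treated library Myh1, Myh2 and Myl3 were called, with 24.3% of all genes. The median difference of the 10 members was -1.29, against 0.02 over all genes, and 8 of the 10 were negative. Myh4 and Actn3 were lower in every PE-treated than in every uninjured library but differed by only -0.87 and -0.96, short of a call, and 51.1% of all genes had groups that did not overlap.
In MRL mice the same comparison called 0 of the 10 members by limma, with 0 at an unadjusted p under 0.05, where 9.73% of all genes were called. All 10 differences were negative there, from -1.70 to -0.21, with a median of -0.95. The PE and uninjured groups of MRL mice overlapped in all 10 members, while 38.8% of all genes had groups that did not overlap. The share of all genes called there rested on single libraries. Without the second PE-treated library 1 gene of all (0.00706%) was called and the members' median was -1.17, without the first PE-treated library 20.3% of all genes were called, 8 members were negative and the median was -0.87, and without the third 3427 genes were called. Without the first or the third uninjured MRL library 0 genes were called. Without the first PE-treated library Myh1 (-1.78, adjusted p = 0.0984) and Actn3 (-1.42, adjusted p = 0.0882) had an unadjusted p under 0.05.

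Against Saline, the type II chains Myh1 and Myh2 had the smallest p-values. In B6 mice all 10 members were lower with PE, with a median of -2.21, 0 were called by limma where 5.97% of all genes were, and 3 had an unadjusted p under 0.05. Myh2 differed by -3.97 (SE 1.197, adjusted p = 0.0551), Myh1 by -2.30 (SE 0.71, adjusted p = 0.0607) and Myl2 by -4.37 (SE 1.78, adjusted p = 0.134). The groups did not overlap for Myh1 and Myh2, as for 29.7% of all genes. Without the third PE-treated B6 library, where 9.05% of all genes were called, both were, Myh2 at -5.11 (adjusted p = 0.025) and Myh1 at -2.91 (adjusted p = 0.029). Without the second Saline-treated B6 library, with its low Myh3, they differed by -3.50 and -2.13, with an adjusted p of 0.162 and 0.156, 9 of the 10 members were lower and 0.162% of all genes were called. Over all the libraries left out in turn, 2 to 1281 genes were called.
In MRL mice all 10 members were again lower with PE than with Saline, with a median of -2.30, and 0 were called by limma, as were 0 (0%) of all genes. Myh1, at -2.13 (SE 0.71, adjusted p = 0.121), was the 1 member with an unadjusted p under 0.05 and the 1 whose groups did not overlap, as for 20.2% of all genes. It differed by -2.59 without the first PE-treated MRL library and by -1.78 without the second, with an adjusted p of 0.0925 and 0.32, and without the second 8 of the 10 members were lower. Of all genes, 775 were called without the first Saline-treated MRL library, 121 without the third PE-treated one and 0 to 2 without any other. The comparisons of PE with uninjured, Saline and ECM libraries share the PE libraries, so their values are not independent of each other.

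Against ECM, PE-treated B6 mice had all 10 members lower, with 0 called by limma where 0.226% of all genes were. Only Myh2 had an unadjusted p under 0.05, at -2.53 (SE 1.197, adjusted p = 0.239), with overlapping groups. In MRL mice PE and ECM gave 0 called members and 0% of all genes called, and 1 member had an unadjusted p under 0.05. Actn3 was 13.07, 11.09 and 13.16 with PE and 13.79, 13.43 and 13.81 with ECM, a difference of -1.24 (SE 0.54, adjusted p = 0.147) without overlap, and it was -0.56 without the second PE-treated library and -1.55 without the first. Myh7 was higher in every PE-treated than in every ECM-treated MRL library, by 1.86 (SE 1.99), and Myh4 was lower in every one, at a difference of -1.25 (SE 0.87). Without the first PE-treated library these were 2.51 and -1.61, and without the second 1.08 and -0.54. Without the third, 1740 of all genes were called, and without any other library 0 or 1. Groups did not overlap for 29.8% of all genes.

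**Figure D3:**
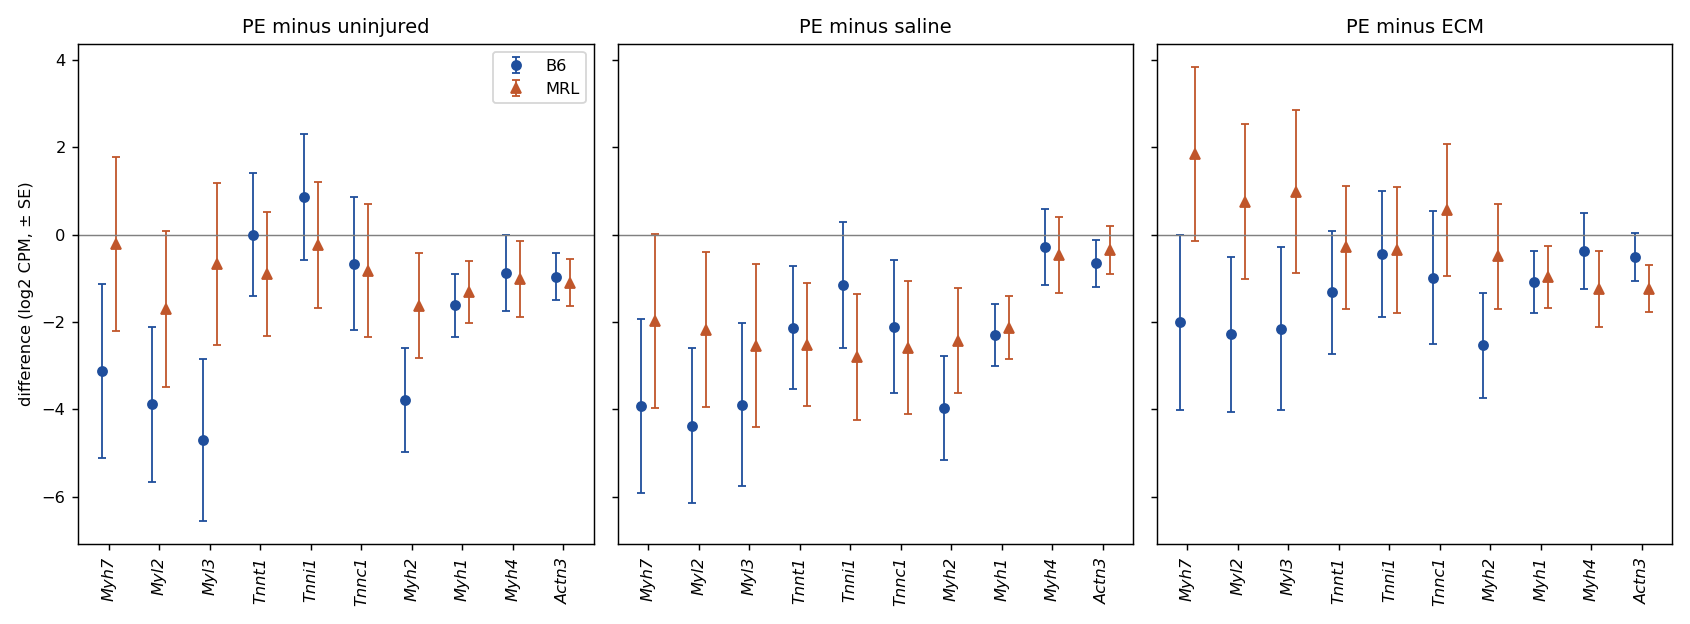
Difference of PE-treated from uninjured, Saline-treated and ECM-treated muscle for each of the 10 genes (vertical axis, log2 CPM, with the limma SE as the bar) in B6 (circles) and MRL (triangles) mice. In B6 mice the slow myosins and Myh2 lie furthest below 0, such as Myl3 at -4.70 against uninjured muscle, while the slow troponins lie nearer to it.

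Saline and ECM alone moved no member past the test. For Saline against uninjured muscle, 0 members and 0% of all genes were called in B6 mice and likewise 0 and 0% in MRL mice, with 0 members at an unadjusted p under 0.05 in either strain. In B6 mice 7 of the 10 differences were positive and in MRL mice 8, with the largest at 2.13 and 2.56, and all groups overlapped. The groups did not overlap for 15.9% of all genes in B6 mice and 13% in MRL mice. Without the second Saline-treated B6 library 456 of all genes (3.22%) were called in B6 mice, with 0 members called and 0 at an unadjusted p under 0.05, while in MRL mice 0 genes were called without any 1 library. ECM against uninjured muscle called 0 members in B6 mice, where 0.424% of all genes were called, and 0 in MRL mice, where 0.0141% were, with 0 members at an unadjusted p under 0.05 in both. ECM against Saline called 0 members in B6 mice (0.0283% of all genes) and 0 in MRL mice (0.00706% of all genes), and again 0 had an unadjusted p under 0.05. In all, 4 members did not overlap between ECM and Saline in MRL mice, as did 12.5% of all genes. Myh7 and Tnnc1 were lower with ECM, at differences of -3.83 (SE 1.99) and -3.15 (SE 1.52), and Myh4 and Actn3 were higher, at 0.79 (SE 0.87) and 0.89 (SE 0.54), each with an adjusted p of 1.

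No member differed between the strains past the test. MRL against B6 called 0 of 10 members in uninjured muscle (2.6% of all genes), 0 with Saline (2.51%), 0 with ECM (2.66%) and 0 with PE (3.35%), and 0 had an unadjusted p under 0.05 in each. With PE, 24.6% of all genes were called without the second PE-treated MRL library and 1.65% without the first, with 0 members called and 0 at an unadjusted p under 0.05 in both. With Saline, 4.33% were called without the second Saline-treated B6 library. Averaged over the 4 treatments, 0 members were called against 15.2% of all genes, with 1 at an unadjusted p under 0.05. This was Tnni1, with a mean of 2.82 in MRL and 4.59 in B6 mice, a difference of -1.76 (SE 0.72, adjusted p = 0.102). It was called at -2.21 (adjusted p = 0.0262) without the first uninjured MRL library, the one uninjured MRL library with high Tnni1. In that fit 12.9% of all genes were called. Tnni1 was lower in every MRL than in every B6 library with ECM, at a difference of -2.51 (SE 1.44), and with PE, at -2.43 (SE 1.44, adjusted p = 0.377), where 17.5% of all genes were free of overlap. With ECM the groups almost touched, as the highest MRL library was at 18.2045 CPM and the lowest B6 library at 18.2063 CPM. With PE it was -1.70 without the first PE-treated MRL library and -3.14 without the second, and with ECM it was -1.79 without the first ECM-treated MRL library. Myh7 and Tnnc1 were also lower in every ECM-treated MRL library, at -2.77 and -2.43, and Myh4 was higher, at 0.74, with an adjusted p of 0.475 to 0.749 over these 4 and 25.8% of all genes free of overlap. The test of whether the treatment differences depended on strain called 0 members and 0% of all genes, with 0 members at an unadjusted p under 0.05, and 3.82% of all genes were called without the second PE-treated MRL library.

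Many of the members varied together from library to library. Over the 24 libraries Pearson's r of Myh7 was 0.94 with Myl2, 0.92 with Myl3 and 0.90 with Tnnc1 (Spearman's rho 0.90, 0.90 and 0.87), and r stayed at 0.91, 0.90 and 0.86 without the 2 libraries with the most extreme Myh7. These were also the 3 genes of the whole series most alike to Myh7, followed by the slow chain gene Myh7b (r = 0.84) and Myzap (r = 0.82), a gene of cardiac cell junctions. After the group means were taken out, r was 0.82 to 0.98 among Myh7, Myl2, Myl3 and Myh2, and 0.93 to 0.97 among the 3 slow troponins. Between slow myosins and slow troponins it ranged from 0.67 to 0.91. Myh1 went with Myh2 (r = 0.92), and Myh4 with Actn3 (r = 0.93), whereas Myh4 and Actn3 had an r of -0.26 to -0.12 with the slow myosins and of -0.53 to -0.32 with the slow troponins. By strain, with group means kept in, Actn3 had an r of 0.56 to 0.65 with the slow myosins in B6 mice and -0.56 to -0.38 in MRL mice. For Myh4 it was 0.19 to 0.35 and -0.49 to -0.29. With the slow troponins Myh4 was negative in both strains, and Actn3 was negative with all of them only in MRL mice.
The genes most alike to Myh4 were Pygm (muscle glycogen phosphorylase, r = 0.97), Pgm2 (a phosphoglucomutase, r = 0.96), Mybpc2 (fast myosin-binding protein C, r = 0.96), Rxrg (a retinoid X receptor, r = 0.94) and Smtnl2 (r = 0.94). They ranked first of all genes without any choice by function. The libraries share group, depth and scaling, so these values describe the 24 libraries and carry no test.

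**Figure D4:**
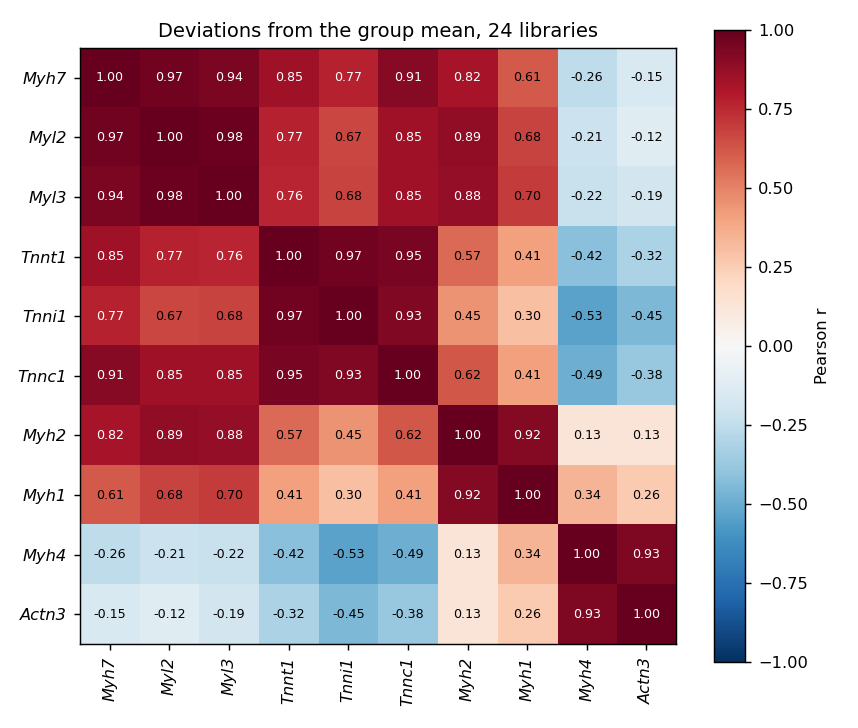
Pearson's r between each pair of the 10 genes over 24 libraries, after subtracting each group's mean (red positive, blue negative, the value in each cell). The slow myosins with Myh2 and the slow troponins form 2 blocks of high values, up to 0.98 and 0.97, and Myh4 with Actn3 (0.93) stands apart from both.

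The slow troponins did not always follow the slow myosins. The mean log2 CPM of Tnnt1, Tnni1 and Tnnc1 minus that of Myh7, Myl2 and Myl3 was negative in all 6 uninjured libraries, at -1.85, -1.24 and -2.36 in B6 mice and -1.41, -0.88 and -1.06 in MRL mice. Levels are not per length here, so only the change of this difference between libraries can be read, and 0 is an arbitrary mark. A correction for length would shift all libraries alike. It would keep their order, but the number above 0 could change. It was above 0 in 8 of the 18 injured libraries, 6 of 9 in B6 mice and 2 of 9 in MRL mice. The 5 injured libraries with low Myh3 were each lower than these 8, which were all among the other 13 injured libraries. In B6 mice the difference was 1.77, -1.70 and -0.38 with Saline, 0.36, -0.34 and 2.76 with ECM and 3.15, 3.14 and 0.19 with PE. In MRL mice it was 1.37, -1.26 and -1.64 with Saline, -0.65, -1.21 and 2.80 with ECM and -1.12, -0.97 and -0.64 with PE. All 3 PE-treated B6 libraries (0.19 to 3.15) were thus above all 3 PE-treated MRL libraries (-1.12 to -0.64).
The developmental myosins, which mark regenerating fibers, were compared library by library. The mean level of Myh3, Myh8 and Myl4 (the embryonic and perinatal heavy chains and an embryonic light chain) was 5.10 to 7.64 in the 8 libraries with a difference above 0. Of the other 16 libraries, 14 had a lower developmental mean than any of these 8, and the other two were the third Saline-treated B6 library at 7.93 and the second ECM-treated B6 library at 6.76. Pearson's r between the difference and the developmental mean was 0.70 over the 24 libraries (rho 0.73), 0.75 without the 2 most extreme libraries and 0.50 after the group means were taken out. This relation was noticed in these data and carries no test.

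**Figure D5:**
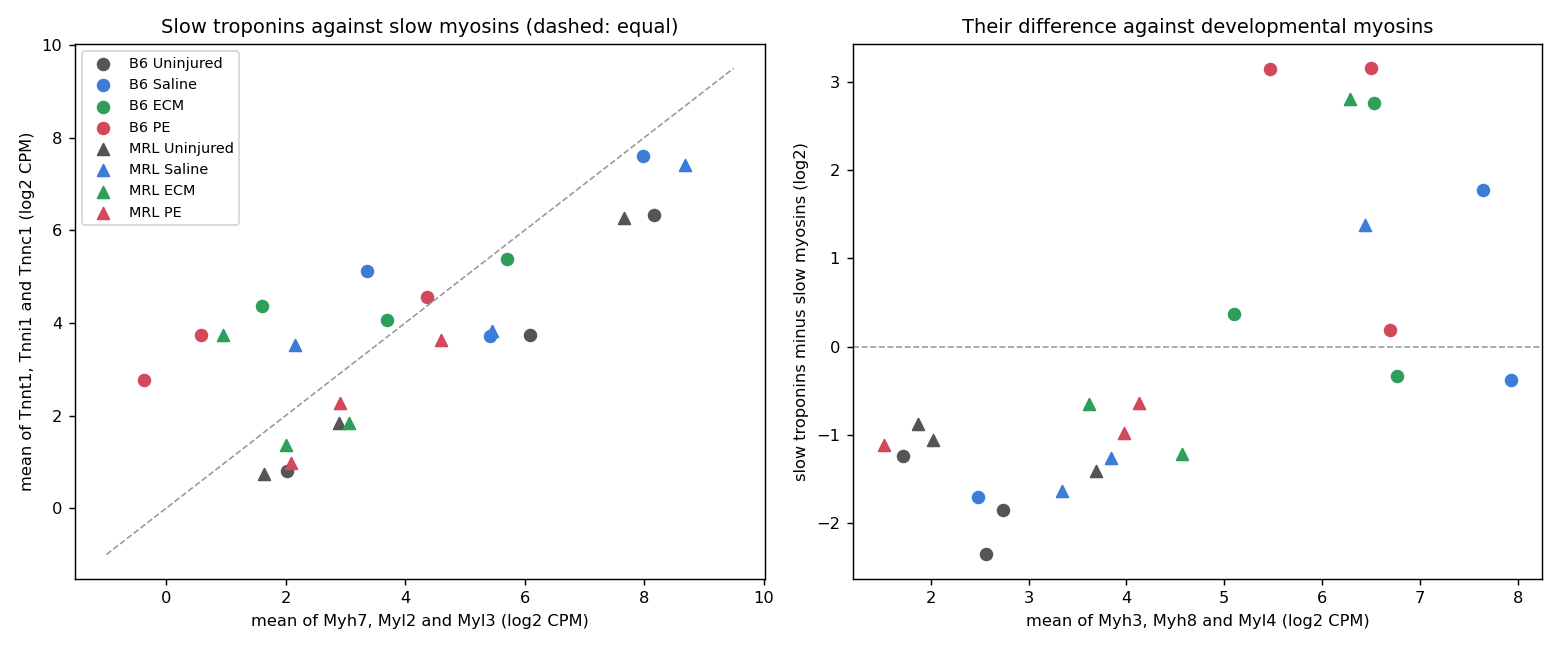
Left, mean of the slow troponins (vertical axis, log2 CPM) against mean of the slow myosins (horizontal axis, log2 CPM), with 1 point per library and a dashed line where both are equal, and right, their difference against the mean of the developmental genes Myh3, Myh8 and Myl4. The uninjured libraries lie below the dashed line, from -2.36 to -0.88, and the 8 libraries above 0 have developmental means from 5.10 to 7.64. Levels are not per length, so the places of the dashed line and of 0 are arbitrary.

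Few of the other sarcomere genes passed the test. Of 10 fast partners of the members, such as the fast troponins Tnnt3, Tnni2 and Tnnc2, none was called in any of the 18 comparisons. In PE-treated against uninjured B6 mice all 10 fast partners had negative differences, with a median of -0.66, and in MRL mice all 10 did too, with a median of -1.15. Of 10 slow partners, 2 were called there in B6 mice and none in MRL mice, against 24.8% and 9.73% of all genes. Myh7b was lower, at a difference of -3.82 (SE 1.38, adjusted p = 0.05 when rounded, just under the threshold), with 4.11, 1.21 and 2.40 in uninjured and -2.42, -1.98 and 0.65 in PE-treated muscle. Sln (sarcolipin, an inhibitor of the calcium pump of the sarcoplasmic reticulum) was higher by 5.47 (SE 1.498, adjusted p = 0.0167), with 2.83, 2.26 and 2.57 against 8.62, 7.21 and 8.24. Of 10 sarcomere genes of all fibers, Tcap (telethonin of the Z-disc) alone was called, lower in PE-treated than in uninjured MRL mice at a difference of -1.61 (SE 0.49, adjusted p = 0.0481). The calls of that comparison rested on single libraries. Of all genes, 1 was called without the second PE-treated MRL library and 0 without the first or the third uninjured one.

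The fiber type regulators that passed the test with PE were all lower. Of 18 listed, 7 were called in PE-treated against uninjured B6 mice and 4 in MRL mice, with medians over the list of -0.68 and -0.90, where 24.8% and 9.73% of all genes were called. In MRL mice 1 gene of all was called there without the second PE-treated library and 0 without the first or the third uninjured one. Esrrg, a nuclear receptor of oxidative fibers, differed by -2.06 (SE 0.45, adjusted p = 0.00623) in B6 mice, and it was also called against Saline, at -1.65 (SE 0.45, adjusted p = 0.0398). Vgll2, a TEAD cofactor of slow fibers, differed by -2.31 (SE 0.57, adjusted p = 0.0106), and Tead1, its DNA-binding partner, by -1.42 (SE 0.41). Of the regulators, Mef2c and Six4 were called in MRL mice at -1.25 (SE 0.34) and -1.03 (SE 0.29). The list holds factors of both fast and slow fibers. The 3 developmental genes Myh3, Myh8 and Myl4 were all called higher in PE-treated than in uninjured B6 mice, by 3.89, 4.25 and 3.49, and Myh8 was called lower in MRL than in B6 mice over the 4 treatments, at a difference of -2.29 (SE 0.62, adjusted p = 0.0166).

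Markers of other cells moved in the same comparisons. The muscle fiber markers Ckm, Acta1, Ttn, Neb, Des and Mb (6 of 6 measured) summed to 41942 to 58489 CPM in uninjured and 17088 to 39146 CPM in PE-treated B6 mice, and none was called. The macrophage markers (5 of 6 measured, none at 0 in any library) summed to 112 to 143 CPM in uninjured, 254 to 303 CPM in Saline-treated, 220 to 556 CPM in ECM-treated and 1323 to 4855 CPM in PE-treated B6 mice. All 5 were called higher with PE than without injury, and 4 higher than with Saline. The second PE-treated B6 library, lowest of all libraries in 5 of the 10 members, had the highest sum. In MRL mice the sums with PE were 182, 4064 and 193 CPM in libraries 1 to 3, and library 2 is the one with the lowest Myh4 and Actn3. Among the PE-treated MRL libraries, library 2 was lowest in Myh1 too but highest in every slow gene, with Myh7 at 5.65 against 2.80 and 3.87.
The neutrophil markers (4 of 5 measured) rose with PE in B6 mice in the same way, all 4 called, to sums of 16.3 to 127 CPM from 1.00 to 3.08 CPM. S100a8 and S100a9 were each at 0 in 1 library. Of the fibroblast markers (5 of 5), 3 were called higher with PE in B6 mice, with sums of 4122 to 7464 CPM against 921 to 1349 CPM, and of the adipocyte markers (6 of 6), 2 were called lower, with sums of 143 to 281 CPM against 641 to 2973 CPM. The 4 endothelial markers were all called lower, with sums of 158 to 218 CPM against 323 to 382 CPM, and 1 of 4 smooth muscle markers (Myh11) was too. In PE-treated against uninjured MRL mice, 3 of the 5 macrophage markers and 1 of the 5 fibroblast markers were called, all higher, in the comparison whose calls over all genes were lost in the same way. Between the strains with PE, C1qb, S100a8 and S100a9 were called lower and the adipocyte gene Lep higher in MRL mice. The groups overlapped for S100a8 and S100a9 but not for C1qb and Lep. The part of these cells in the members' levels was not tested.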

How the data were processed

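The deposited values are log2 CPM per gene, which the authors made by quantifying reads of poly(A)-selected libraries with kallisto, summing transcripts to genes with tximport, keeping genes over 1 CPM in at least 3 libraries and scaling with edgeR's TMM method. Of 14160 rows in the matrix, 1 had no symbol and was dropped. A count of 0 reads as -3.65, the minimum, and with a prior count of 2 this gives a mean effective library size of 25149682 reads, so that 3 counts equal 0.119 CPM.

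Differences between groups were tested with limma 3.58.1 in R 4.3.3 (1 coefficient per group over all 24 libraries, variance trend, 2-sided) with Benjamini-Hochberg adjustment over the 14159 genes of each of 18 comparisons. The threshold for a call was an adjusted p of 0.05. The procedure was tested on simulated data. The labels number the libraries without naming animals, so p-values measure the spread between libraries. An exact permutation test of 3 against 3 cannot go below 0.1 and was not used. The 10 members and all gene lists were chosen with earlier results of these data known. Fold changes are printed for members with an unadjusted p under 0.05, and for pairs without overlap chosen after their values were seen. List genes are named up to 5 a list by smallest p, with the 5 genes most correlated with Myh7 and with Myh4. Positions and transcript lengths are from GENCODE (GRCm39), copies from BLAST 2.17.0 and promoters from RefSeq. The prior was subtracted to give linear CPM. The deviations of same-numbered libraries from their group means all correlated over 0.1 in 1 of 16 comparisons of 2 groups (MRL with B6 under PE), so only there did they meet the bar for a pairing. The block was fitted in every comparison as an alternative. Depth bounds the precision of low levels such as Myl2 in PE-treated B6 mice.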

Additional observations from a re-analysis of the deposited data

How the results depend on the processing

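The 11 member differences with an unadjusted p under 0.05 kept their direction in every alternative run. The log2(CPM + 1) scale, a filter at a mean log2 CPM of 1 and libraries scaled to equal totals changed no count of called members. With a weight for each library, the calls became 6 for PE minus uninjured in B6 mice (Myh1, Myh2, Myh7, Myl2, Myl3 and Actn3), 2 for PE minus Saline in B6 mice, 1 for PE minus ECM in B6 mice, 3 for PE minus Saline in MRL mice, 2 for MRL minus B6 with PE and 2 over the 4 treatments. The cause was not tested. The share of all genes called with these weights is not given here, so these counts stand without a background. Leaving out 1 library at a time gave 0 to 4 called members for PE minus uninjured in B6 mice, 0 to 2 for PE minus Saline in B6 mice and 0 to 1 for MRL minus B6 over the 4 treatments. With the replicate block the count for PE minus uninjured in B6 mice stayed at 1 (Myh2, adjusted p = 0.0428 by limma), and no other count of called members changed. Over all genes the block moved the calls for PE minus uninjured in MRL mice from 1377 to 9, for PE minus ECM in MRL mice from 0 to 111 and for ECM minus uninjured in MRL mice from 2 to 1. The count of all genes called ran from 533 to 3435 for PE minus uninjured in B6 mice when 1 library was left out, and from 0 to 3427 in MRL mice. Near-identical genes of Myh1, Myh2 and Myh7 limit how reads were assigned, and 3 libraries per group limit every comparison.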
